A study of Mus musculus with 18 samples.

Results

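The primitive streak regulators described here are 6 transcription factor genes, T (brachyury), Eomes, Mixl1, Gsc, Mesp1 and Evx1. They were chosen by name, and each was found once by its identifier in both deposited count tables. They are 6 of the 54352 gene names that both tables hold. The study sequenced total RNA from mouse embryonic stem cells and from embryoid bodies, the floating aggregates in which such cells differentiate. It compared a knock-in line that carries FLAG-tagged wildtype EED, called FLAG-WT here, with a knock-in line that carries FLAG-tagged EED with the K19R mutation, called K19R here. EED belongs to the core of PRC2, the Polycomb complex that places the repressive methyl mark on lysine 27 of histone H3 and holds developmental genes silent in stem cells. The question named in the study's title is whether acetylation of EED is required for differentiation of these cells, and K19R replaces a lysine, which can be acetylated, with arginine, which cannot.

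Both knock-in lines were sampled at day 0 as stem cells grown with leukemia inhibitory factor (LIF) and 2i, the MEK inhibitor PD0325901 together with the GSK3 inhibitor CHIR99021. They were sampled again at days 2, 6 and 10 as embryoid bodies in differentiation medium that held neither LIF nor 2i. A ninth group, wildtype mESC, carried no tag and was grown with LIF alone. The FLAG tag is therefore shared by all 8 FLAG-EED groups, and the ninth group differs from FLAG-WT day 0 in tag, medium and count table at once. Each of the 9 groups had 2 libraries, labelled as replicates. The labels say neither whether a line is 1 clone nor whether replicates came from separate cultures, so the p-values speak to the spread of these libraries, which may be technical.

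The primitive streak is the furrow through which epiblast cells leave to form mesoderm and definitive endoderm at gastrulation. Nodal and WNT signals, maintained by BMP4 from the neighbouring tissue, switch on a small set of transcription factors there. T and Evx1 mark the posterior streak, Eomes and Mixl1 the early streak and its mesendoderm, Gsc the anterior streak and organizer, and Mesp1 the nascent mesoderm that leaves the streak. Many genes of this kind carry PRC2's histone mark in stem cells. In bulk RNA, fewer cells that express a gene and less RNA per cell cannot be told apart.

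The 16 FLAG-EED libraries held 20158077 to 28917558 counts on genes, and the wildtype mESC libraries 14190166 and 37375083. Levels are given as CPM, which divide a gene's count by the library's scaled total. The scaling used edgeR's TMM factors, which lay at 0.804 to 0.838 in the 4 FLAG-WT libraries of days 6 and 10 and at 0.996 to 1.10 in the other 12 FLAG-EED libraries. Scaling by library totals alone raised the median log2 difference between lines over all genes from 0.02 to 0.38 (day 6) and from 0.13 to 0.44 (day 10). A gene was called changed at a Benjamini-Hochberg adjusted p under 0.05 over all genes tested in edgeR's quasi-likelihood test. Errors on log2 changes are standard errors. The stem cell genes Pou5f1, Nanog, Sox2 and Zfp42 were present in every group, as a check of the labelled cell type. Their summed level was 3785 to 4053 CPM in the 4 day 0 FLAG-EED libraries and 1985 to 2041 CPM in wildtype mESC. At day 10 it was 48.0 to 49.4 CPM in FLAG-WT and 394 to 488 CPM in K19R.

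The members were scarce. The limit that a count of 0 allows, 3 counts per library, is worth 0.0738 to 0.195 CPM here. Mesp1 had 0 to 7 counts in every library and did not pass the filter on low counts, so 5 of the 6 members were tested. T had 10 or more counts in 2 of the 8 FLAG-WT libraries and in all 8 K19R libraries, so it passed largely through the line in which it was high. Low counts widen the errors of T, Mixl1, Gsc and Evx1, while Eomes, with up to 990 counts in a library, was the best measured member.

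The 6 genes lie on 6 chromosomes in the GRCm38 coordinates of the deposited tables, with T at chr17:8434423-8442496, Eomes at chr9:118478212-118486132, Mixl1 at chr1:180693043-180697034, Gsc at chr12:104471209-104473330, Mesp1 at chr7:79792241-79793788 and Evx1 at chr6:52313498-52318378. T, Eomes and Evx1 are on the plus strand and Mixl1, Gsc and Mesp1 on the minus strand. RefSeq promoter windows (GRCm38.p6) matched 5 of the 6 members, Mixl1 being the other. The 250 bases before the start are shown for T and Evx1, 2 genes that were raised together in late K19R embryoid bodies, and for Eomes, which followed another course. Capitals mark matches on either strand to any of 5 motifs searched, CTTTGA (TCF/LEF), GGTGTGA (T-box), TGTGGATT (FOXH1), CAGAC (SMAD) and TAATCC (goosecoid-type homeodomain).
T, chr17:8434173-8434422, plus strand: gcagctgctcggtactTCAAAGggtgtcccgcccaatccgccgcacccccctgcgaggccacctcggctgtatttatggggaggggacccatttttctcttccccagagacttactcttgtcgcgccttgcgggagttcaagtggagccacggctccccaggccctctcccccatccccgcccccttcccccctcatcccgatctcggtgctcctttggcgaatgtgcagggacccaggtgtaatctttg
Evx1, chr6:52313248-52313497, plus strand: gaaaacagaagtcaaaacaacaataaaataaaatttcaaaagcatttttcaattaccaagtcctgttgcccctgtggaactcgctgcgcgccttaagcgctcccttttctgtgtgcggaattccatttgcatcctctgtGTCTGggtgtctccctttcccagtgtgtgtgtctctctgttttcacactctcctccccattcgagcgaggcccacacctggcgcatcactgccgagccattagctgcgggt
Eomes, chr9:118477939-118478188, plus strand: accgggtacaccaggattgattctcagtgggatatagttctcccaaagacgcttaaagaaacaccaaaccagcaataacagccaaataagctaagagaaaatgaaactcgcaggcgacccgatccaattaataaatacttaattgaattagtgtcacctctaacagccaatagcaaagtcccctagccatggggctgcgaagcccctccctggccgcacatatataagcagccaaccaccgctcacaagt

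The T window held 1 TCF/LEF match, on the other strand and 234 bases before the start. The Evx1 window held 1 CAGAC match on the other strand, 111 bases before the start, and the Eomes window held none of the 5 motifs. The Mesp1 window, not printed because it overlaps an annotated exon, held 2 TCF/LEF matches, 72 and 31 bases before the start, and 1 CAGAC match at 117 bases. These matches lie before the RefSeq start but inside Mesp1 by the deposited coordinates. The Gsc window, which likewise overlaps Gsc by those coordinates, held none of the 5. Of 32851 RefSeq windows of this length, 13.8% held CTTTGA, 3.33% GGTGTGA, 0.718% TGTGGATT, 42.2% CAGAC and 6.25% TAATCC, so a CAGAC match is common. The windows held 14 CG pairs in T, 10 in Evx1, 8 in Eomes, 22 in Gsc and 2 in Mesp1, against a median of 6 over all windows. No match overlapped another. T and Evx1 shared none of the 5 motifs in these windows, and the Evx1 window also lies within Evx1os, a noncoding gene on the other strand.

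**Figure D1:**
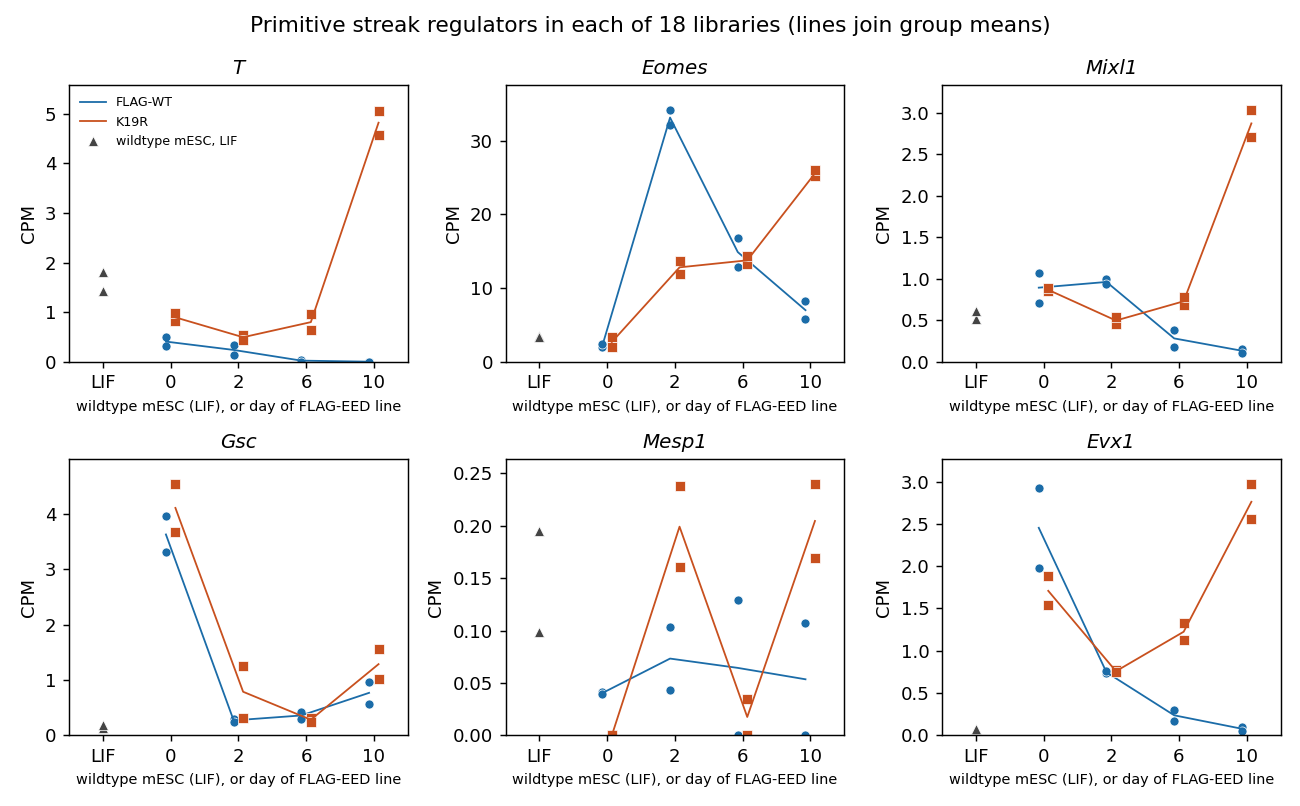
CPM of the 6 members (1 panel each, linear axes with their own range) in all 18 libraries: triangles are wildtype mESC grown with LIF, circles FLAG-WT and squares K19R at days 0, 2, 6 and 10, and lines join the means of 2 libraries. By group mean, T, Mixl1 and Evx1 are lowest at day 10 in FLAG-WT and highest at day 10 in K19R among the FLAG-EED groups, Eomes peaks at day 2 in FLAG-WT, and Mesp1 stays below 0.25 CPM.

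T encodes the founding T-box factor, needed for posterior mesoderm and notochord. In FLAG-WT its 2 libraries gave 12 and 8 counts (0.495 and 0.316 CPM) at day 0, 3 and 10 counts (0.129 and 0.345 CPM) at day 2, 1 and 0 counts at day 6, then 0 counts in both libraries at day 10. In K19R they gave 22 and 21 counts (0.812 and 0.977 CPM) at day 0, 17 and 13 (0.546 and 0.441 CPM) at day 2, 24 and 18 (0.963 and 0.634 CPM) at day 6, then 127 and 108 (5.07 and 4.58 CPM) at day 10. The K19R libraries were above the FLAG-WT libraries at every day without overlap, and FLAG-WT ran down to 0 while K19R ended at its highest level. At day 10 the limit of 3 counts per library in FLAG-WT puts T at least 30.5-fold higher in K19R (adjusted p = 1.5e-10, 235 counts against 0). At day 6 the log2 difference was 4.74 ± 0.84 (adjusted p = 2.9e-05), from 42 counts against 1, a ratio of 31.8 with a 95% counting interval of 5.41 to 1290. The differences of 1.13 ± 0.45 at day 0 (adjusted p = 0.12) and 0.98 ± 0.52 at day 2 (adjusted p = 0.14) did not pass.

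Over all 9 groups, T was highest in K19R day 10 (4.82 ± 0.34 CPM, SD, n = 2) and next in wildtype mESC, which come from the other count table (1.62 ± 0.28), and the libraries of both stood clear of those below. K19R day 0 (0.895 ± 0.117) and day 6 (0.798 ± 0.233) overlapped each other, as did K19R day 2 (0.493 ± 0.074) and FLAG-WT day 0 (0.406 ± 0.127). FLAG-WT day 2 (0.237 ± 0.152) also overlapped FLAG-WT day 0, and FLAG-WT day 6 and day 10, at 1 and 0 counts in all, came last and overlapped each other. Within FLAG-WT, T fell from day 2 to day 6 by 3.08 ± 1.08 on the log2 scale (adjusted p = 0.013), 13 counts against 1, a ratio of 10.1 with a counting interval of 1.51 to 428. That call rested on single libraries, since the adjusted p was 0.19 without replicate 2 of day 2 and 0.078 without replicate 2 of day 6. Within K19R, T rose from day 6 to day 10 by 2.60 ± 0.32 (adjusted p = 1.5e-07).

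Evx1, an even-skipped type homeobox gene of the posterior streak, ended the same way after another start. Its FLAG-WT libraries gave 1.98 and 2.93 CPM at day 0, then 0.733 and 0.759 (day 2), 0.301 and 0.175 (day 6) and 0.104 and 0.0535 (day 10), the last from 2 and 1 counts. Its K19R libraries gave 1.88 and 1.54 CPM at day 0, 0.770 and 0.747 at day 2, 1.32 and 1.13 at day 6, then 2.55 and 2.97 at day 10, the last from 64 and 70 counts. At days 6 and 10 every K19R library was above every FLAG-WT library, at day 0 both were below, and at day 2 the lines overlapped. FLAG-WT was lower at each later day, while K19R was lowest at day 2 and at day 10 lay above its own day 0 libraries. The difference was 2.28 ± 0.45 at day 6 (adjusted p = 9.1e-05) and 5.03 ± 0.51 at day 10 (adjusted p = 4.1e-09). The day 10 ratio, from 134 counts against 3, was 34.7 with a counting interval of 11.6 to 171. Neither -0.51 ± 0.27 at day 0 (adjusted p = 0.26) nor 0.02 ± 0.36 at day 2 (adjusted p = 0.97) was called.

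From day 0 to day 2 Evx1 fell in both lines, by 1.71 ± 0.31 in FLAG-WT (adjusted p = 3.4e-05) and by 1.18 ± 0.31 in K19R (adjusted p = 0.0024). FLAG-WT fell again to day 6 by 1.58 ± 0.49 (adjusted p = 0.0056), and K19R rose from day 6 to day 10 by 1.17 ± 0.28 (adjusted p = 0.00085). Evx1 is overlapped on the opposite strand by Evx1os, a noncoding gene that shares 73 exon bases with it. Evx1os had 4 counts in FLAG-WT and 67 in K19R at day 10, a log2 difference of 3.64 ± 0.68 (adjusted p = 6.7e-05). The recorded counting commands set no strand option, so reads of Evx1 and Evx1os over shared bases cannot be told apart. With no multiple-overlap option either, such reads went to neither gene.

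Mixl1, a paired-type homeobox gene of the early streak and mesendoderm, gave 1.07 and 0.712 CPM in FLAG-WT at day 0, 0.992 and 0.931 at day 2, 0.386 and 0.175 at day 6, then 0.157 and 0.107 at day 10. In K19R it gave 0.849 and 0.884 CPM at day 0, 0.449 and 0.543 at day 2, 0.682 and 0.775 at day 6, then 3.03 and 2.71 at day 10. The lines overlapped at day 0, K19R was below FLAG-WT at day 2 and above it at days 6 and 10. The day 10 difference, 140 counts against 5, was 4.39 ± 0.47 (adjusted p = 1e-08), the day 6 difference 1.29 ± 0.47 (adjusted p = 0.022) and the day 2 difference -0.95 ± 0.37 (adjusted p = 0.044). The call at day 2 was the weakest: its adjusted p was 0.052 with a replicate block, 0.07 with no filter on low counts, 0.12 in DESeq2, 0.05 with the 4 libraries alone and 0.093 to 0.19 when 1 of the 4 libraries was left out. At day 6 the adjusted p was 0.17 without FLAG-WT replicate 2 and 0.093 without K19R replicate 2. FLAG-WT lost Mixl1 between days 2 and 6, when it fell by 1.68 ± 0.45 (adjusted p = 0.0018), and K19R gained it between days 6 and 10, by 1.97 ± 0.31 (adjusted p = 6.4e-06).

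Eomes, a T-box gene required for definitive endoderm and for early cardiac mesoderm, was per kilobase of exon the most abundant member in every embryoid body group, and the only tested member that rose at the start of differentiation. FLAG-WT gave 1.98 and 2.37 CPM at day 0, 32.1 and 34.1 at day 2, 16.8 and 12.9 at day 6, then 8.25 and 5.73 at day 10. K19R gave 2.03 and 3.30 CPM at day 0, 13.6 and 11.9 at day 2, 13.2 and 14.3 at day 6, then 25.1 and 26.0 at day 10. FLAG-WT thus made a single peak at day 2, whereas K19R reached a lower level at day 2, held it to day 6 and was highest at day 10. The lines overlapped at days 0 and 6, FLAG-WT was higher at day 2 and K19R at day 10. The difference was -1.37 ± 0.14 at day 2 (adjusted p = 1e-08) and 1.87 ± 0.16 at day 10 (adjusted p = 2.3e-10), so its sign turned between these days. Neither 0.26 ± 0.25 at day 0 (adjusted p = 0.58) nor -0.12 ± 0.15 at day 6 (adjusted p = 0.5) passed. With library totals alone the day 6 value was 0.24, still short of the threshold.

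From day 0 to day 2 Eomes rose by 3.92 ± 0.18 in FLAG-WT (adjusted p = 4.8e-16) and by 2.29 ± 0.19 in K19R (adjusted p = 5.4e-11). It then fell in FLAG-WT by 1.14 ± 0.14 to day 6 (adjusted p = 6.3e-08) and by 1.10 ± 0.17 to day 10 (adjusted p = 7e-06). In K19R the step from day 2 to day 6 was 0.10 ± 0.15 (adjusted p = 0.54), and the step from day 6 to day 10 a rise of 0.89 ± 0.14 (adjusted p = 6.2e-06). Gm33460, on the opposite strand, shares 118 exon bases with Eomes and had 2 to 41 counts per group, far fewer than Eomes. Eomes is also a gene of visceral endoderm, the extraembryonic layer that often lines embryoid bodies, and of trophoblast. The summed level of 11 visceral endoderm genes was 5145 to 5217 CPM in FLAG-WT and 446 to 572 CPM in K19R at day 2. At day 0, 7 of the 11 were already lower in K19R and 2 higher, 81.8% called beside 10.5% of all genes tested. The day 0 sums overlapped, at 85.5 to 204 CPM in FLAG-WT and 161 to 196 CPM in K19R. Afp was 28.4 ± 37.6 CPM in FLAG-WT day 0 (SD, n = 2), so those libraries differed widely. Of the 11, 9 were lower in K19R at day 2 and 10 at day 6. The shares called were 81.8 and 90.9%, beside 41.8 and 58.5% of all genes tested. At day 10 the sums, led by Afp (-1.11 ± 0.45), were 33310 to 33650 and 22975 to 23412 CPM, but 3 genes were higher, among them Sox7 (1.91 ± 0.13) and Ihh (1.82 ± 0.16), and 3 lower, with a median of 0.09, so the list did not share the direction of its sum. The sum of 12 trophoblast genes was 5948 to 6484 CPM in FLAG-WT and 2311 to 2406 CPM in K19R at day 10, with the defining genes Tpbpa at 0 and 4 counts and Prl3d1 at 3 and 90 counts. That sum was led in FLAG-WT by the keratin Krt18 (-1.70 ± 0.12). Of the 11 tested, 4 were higher, among them Esrrb (4.72 ± 0.17), also a stem cell gene, and Tfap2c (1.40 ± 0.13), and 4 lower, with a median of 0.50, against the direction of the sum. The shares called at day 10 were 54.5% of the visceral endoderm genes and 72.7% of the tested trophoblast genes, beside 58.4% of all genes tested. The part of these cells in the Eomes result was not tested.

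Gsc, a homeobox repressor of the anterior streak and organizer, was highest before differentiation. FLAG-WT gave 3.30 and 3.95 CPM at day 0, 0.302 and 0.241 at day 2, 0.429 and 0.292 at day 6, then 0.574 and 0.964 at day 10. K19R gave 4.54 and 3.68 CPM at day 0, 0.321 and 1.26 at day 2, 0.321 and 0.246 at day 6, then 1.56 and 1.02 at day 10. Both lines dropped from day 0 to day 2, by 3.73 ± 0.44 in FLAG-WT (adjusted p = 6.1e-08) and by 2.40 ± 0.35 in K19R (adjusted p = 1.8e-06). The lines overlapped at days 0 and 6, and at day 10 both K19R libraries were above both FLAG-WT libraries, by 0.75 ± 0.45 (adjusted p = 0.16). With library totals alone that difference was 1.05 with an adjusted p of 0.047.

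At day 2 Gsc was called higher in K19R (1.52 ± 0.55, adjusted p = 0.028), from 10 and 37 counts against 7 and 7. The 37 counts of K19R replicate 2 carried this, and without that library the difference was 0.26 (adjusted p = 0.81). It was also lost without FLAG-WT replicate 1 (adjusted p = 0.072) or replicate 2 (adjusted p = 0.16). The drop in K19R from day 2 to day 6 (-1.45 ± 0.54, adjusted p = 0.02) leaned on the same library and was -0.20 without it (adjusted p = 0.81). It was lost as well without replicate 2 of day 6 (adjusted p = 0.12). The rise of Gsc in K19R from day 6 to day 10, 2.18 ± 0.51, passed (adjusted p = 0.00067).

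Mesp1, a basic helix-loop-helix gene of the earliest cardiac mesoderm, was close to absent. It had 1 and 1 counts in FLAG-WT at day 0, 1 and 3 at day 2, 3 and 0 at day 6, then 0 and 2 at day 10, and 0 and 0, 5 and 7, 0 and 1, and 6 and 4 counts in K19R at the same days. The 2 K19R groups with the most counts, at days 2 and 10, lay above the other FLAG-EED libraries. In K19R the 12 counts of day 2 against 0 at day 0 put it at least 1.6-fold higher, and 10 counts at day 10 against 1 at day 6 gave a ratio of 11 with a counting interval of 1.56 to 476. Between lines the day 10 ratio, 10 counts against 2, was 3.89 with an interval of 0.829 to 36.5. With no filter on low counts, the day 0 to day 2 step in K19R had an adjusted p of 0.029, and none of the other 13 comparisons passed. Mesp2, its neighbour and close relative, was better counted and was higher in K19R at day 2, with 178 counts against 64 and a difference of 1.26 ± 0.29 (adjusted p = 0.001), but not at day 10 (0.69 ± 0.43, adjusted p = 0.17).

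**Figure D2:**
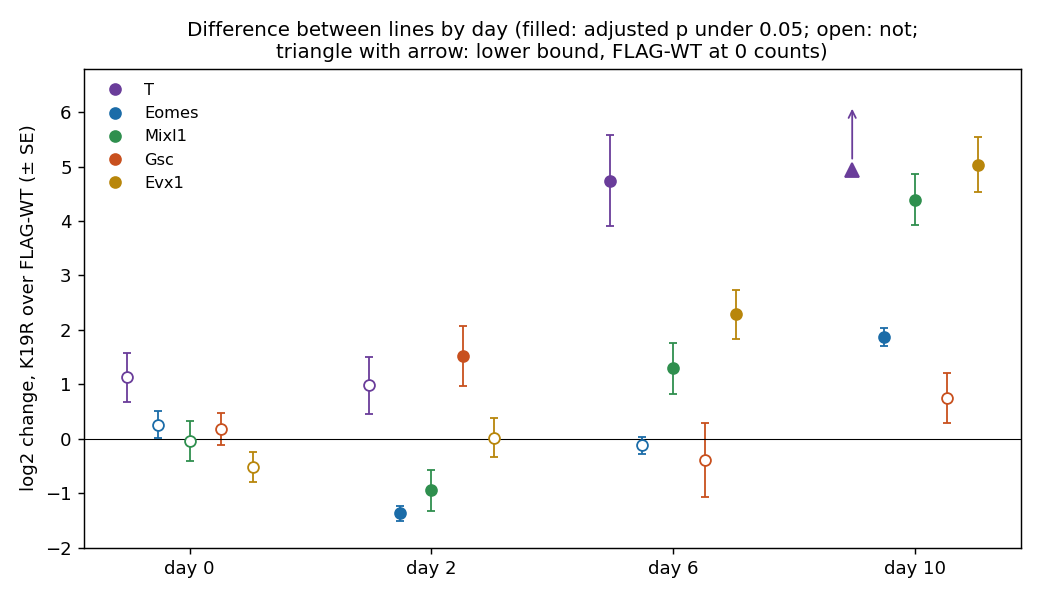
Log2 change of K19R over FLAG-WT (vertical axis, bars are standard errors) for the 5 tested members at each of 4 days, with filled symbols where the adjusted p was under 0.05 and a triangle with an arrow for the lower bound of T at day 10, where FLAG-WT had 0 counts. No symbol is filled at day 0, Eomes lies below 0 at day 2, and T, Eomes, Mixl1 and Evx1 lie above 0 at day 10.

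Counted over the set, no tested member differed between lines at day 0 in edgeR's test, where 10.5% of all genes tested were called, and 1 of the 5, T, had an unadjusted p under 0.05. DESeq2 also called 0. At day 2, 1 was higher and 2 lower in K19R, beside 41.8% of all genes. At day 6, 3 were higher and 0 lower, beside 58.5%, and at day 10, 4 were higher and 0 lower, beside 58.4%. The median log2 difference of the 5 was 0.18, 0.02, 1.29 and 4.39 at the 4 days, against -0.00, 0.00, 0.02 and 0.13 over all genes tested. With T set at its bound the day 10 median was the same 4.39. With more than 1 gene in 2 called at days 6 and 10, the number of members called is little above the background. Since T passed the filter largely through K19R, these counts and medians are a description and support nothing by themselves.

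Along the time course of FLAG-WT, 1 member rose and 2 fell from day 0 to day 2 (56.1% of all genes called), 0 rose and 4 fell from day 2 to day 6 (72.6%), and 0 rose and 1 fell from day 6 to day 10 (44.2%). In K19R, 1 rose and 2 fell in the first step (56.4%), 0 rose and 1 fell in the second (66.8%), and all 5 rose in the third (58.5%). Consecutive steps share the libraries of the day between them. Eomes alone rose in the first step, in each line, and Gsc and Evx1 fell in each.

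The steps themselves were compared between lines in the same model, as the K19R step minus the FLAG-WT step. From day 0 to day 2 only Eomes differed among the 5 (27.1% of all genes called), its rise being smaller in K19R by 1.63 ± 0.28 on the log2 scale (adjusted p = 9.2e-05). From day 2 to day 6, 4 members had a higher step in K19R (44.5%), T by 3.76 ± 1.15 (adjusted p = 0.0095), Evx1 by 2.26 ± 0.59 (adjusted p = 0.0027), Mixl1 by 2.24 ± 0.60 (adjusted p = 0.0036) and Eomes by 1.25 ± 0.20 (adjusted p = 1.6e-05). Gsc went the other way (-1.91 ± 0.89) with an adjusted p of 0.084. From day 6 to day 10, 3 members had a higher step in K19R (39%), Mixl1 by 3.10 ± 0.78 (adjusted p = 0.0024), Evx1 by 2.75 ± 0.88 (adjusted p = 0.014) and Eomes by 1.99 ± 0.22 (adjusted p = 5.9e-08). T, at 1 and 0 counts in FLAG-WT day 6 and 0 in day 10, did not pass there (adjusted p = 0.15).

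Several of these differences of steps rested on single libraries of few counts. The day 2 to day 6 value of T was 2.85 (adjusted p = 0.15) without FLAG-WT day 2 replicate 2 and 3.06 (adjusted p = 0.051) without FLAG-WT day 6 replicate 2. The day 6 to day 10 values without FLAG-WT day 6 replicate 1 were 2.37 for Mixl1 (adjusted p = 0.12) and 2.28 for Evx1 (adjusted p = 0.17), and that of Evx1 was 2.39 (adjusted p = 0.071) without FLAG-WT day 10 replicate 2. Gsc passed from day 0 to day 2 (2.02, adjusted p = 0.007) and from day 2 to day 6 (-2.59, adjusted p = 0.0072) when K19R day 2 replicate 1 was left out, and from day 2 to day 6 with no filter on low counts (adjusted p = 0.041).

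**Figure D3:**
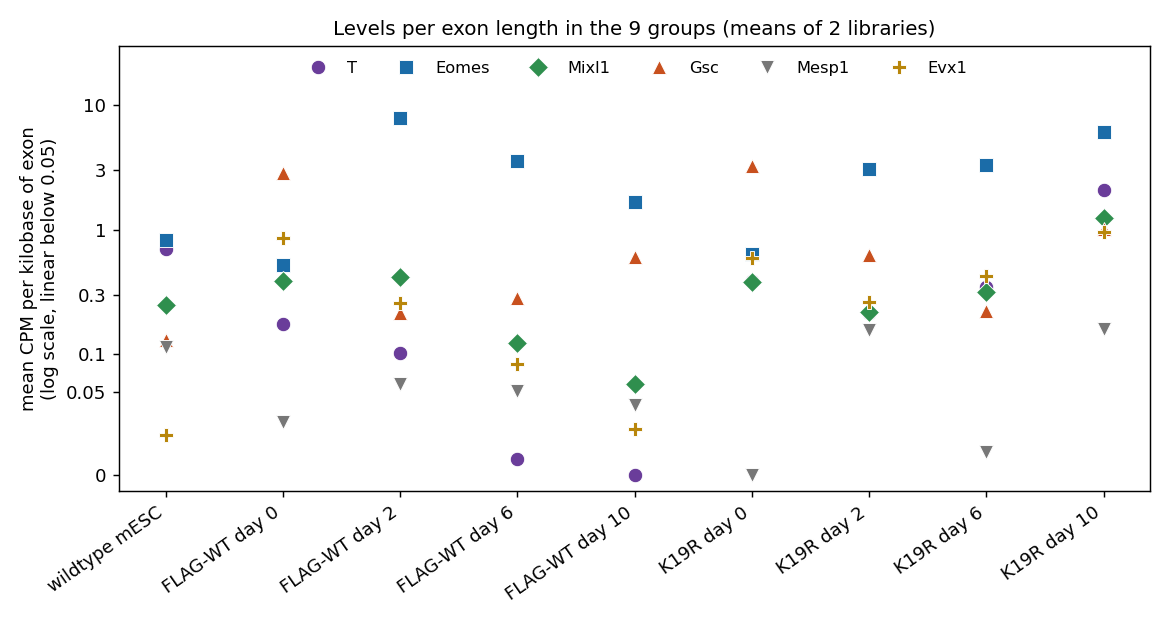
Mean CPM per kilobase of exon (vertical axis, logarithmic above 0.05 and linear below) of the 6 members in the 9 groups, each symbol the mean of 2 libraries. Gsc is the highest member in both day 0 groups and Eomes in each embryoid body group, and T moves from 0 in FLAG-WT day 10 to the second place in K19R day 10.

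Levels can be compared between genes only per length, and the scale here is mean CPM per kilobase of exon (n = 2 libraries, ± SD). At day 0 Gsc led in both lines, at 2.86 ± 0.36 in FLAG-WT and 3.24 ± 0.48 in K19R, and Evx1 (0.853 ± 0.232 and 0.594 ± 0.085) and Eomes (0.524 ± 0.066 and 0.642 ± 0.217) came next. At FLAG-WT day 2 Eomes, at 7.97 ± 0.35, stood far above Mixl1 (0.419 ± 0.019), Evx1 (0.259 ± 0.006), Gsc (0.214 ± 0.034), T (0.102 ± 0.066) and Mesp1 (0.0575 ± 0.0335). The members' level in FLAG-WT at day 2 was therefore mostly that of Eomes, with little T. At K19R day 10 Eomes (6.15 ± 0.14) was followed by T (2.08 ± 0.15), Mixl1 (1.25 ± 0.10), Gsc (1.01 ± 0.30), Evx1 (0.960 ± 0.102) and Mesp1 (0.160 ± 0.039), and the Gsc libraries overlapped those of both Mixl1 and Evx1, which did not overlap each other.

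Wildtype mESC held a different balance of the members from FLAG-WT day 0. T was higher in wildtype mESC, with 1.82 and 1.43 CPM, by 1.93 ± 0.39 on the log2 scale (adjusted p = 0.00012), and Eomes, with 3.44 and 3.37 CPM, by 0.62 ± 0.23 (adjusted p = 0.019). Gsc, with 0.130 and 0.197 CPM from 2 and 8 counts, was lower by a log2 value of -4.33 ± 0.47 (adjusted p = 4.8e-09). Evx1, with 1 and 3 counts, was lower by -5.03 ± 0.47 (adjusted p = 2.7e-10). Mixl1, with 0.520 and 0.615 CPM, did not pass (-0.62 ± 0.37, adjusted p = 0.15), and Mesp1 had 3 and 4 counts. Thus 2 members were higher and 2 lower, in a comparison that called 64.9% of all genes, and the call of Eomes was lost without wildtype mESC replicate 2 (adjusted p = 0.094) or FLAG-WT day 0 replicate 1 (adjusted p = 0.13). Tag, medium and count table cannot be told apart in this comparison.

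T, Mixl1 and Evx1 varied together over the 16 FLAG-EED libraries, and Eomes and Gsc each ran a course of its own. On log2 CPM, Pearson's r was 0.90 between T and Mixl1, 0.86 between T and Evx1 and 0.88 between Mixl1 and Evx1, but 0.11 between T and Eomes and -0.79 between Eomes and Gsc. Gsc had r of 0.33 with T, 0.29 with Mixl1 and 0.50 with Evx1. These are descriptions over libraries that fall into 8 groups and share low counts. Over the 8 group means, the genes whose course was most like that of T were Adgrf5 (r = 0.98), Tnfrsf9 (0.97) and Entpd1 (0.97). Those most like Eomes were Slc43a2 (0.99), Nudt13 (0.98) and Lhx1 (0.98), the last a LIM homeobox gene. Those most like Mixl1 were Entpd1 (0.97), mt-Nd5 (0.97) and AC126937.2 (0.95), those most like Gsc were Tuba1c, Gm14327 and Nsmce3 (each 0.97), and those most like Evx1 were Nme7 (0.97), Klhdc7a (0.96) and Wscd2 (0.96).

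Of the ligand genes that act upstream of the members, Nodal, the main inducer of Eomes, Mixl1 and Gsc, showed no difference that passed at day 0 or day 2. Its level was 146 ± 5 CPM at day 0, 58.2 ± 1.8 at day 2, 9.07 ± 1.51 at day 6, then 3.54 ± 0.14 at day 10 in FLAG-WT, and 133 ± 5, 68.3 ± 1.0, 12.4 ± 3.8 and 21.9 ± 2.7 CPM in K19R (SD, n = 2). It was higher in K19R by 0.43 ± 0.15 at day 6 (adjusted p = 0.017) and by 2.63 ± 0.17 at day 10 (adjusted p = 1.1e-12). Of 16 Nodal and Activin pathway genes, 14 were tested, and the numbers higher and lower in K19R were 1 and 1 at day 0, 4 and 6 at day 2, 8 and 3 at day 6, then 8 and 4 at day 10, with median log2 differences of -0.03, -0.05, 0.41 and 0.37. The shares called were 14.3, 71.4, 78.6 and 85.7% of the 14, beside 10.5, 41.8, 58.5 and 58.4% of all genes tested. At day 10 the largest were Lefty2 (5.55 ± 0.26), a feedback inhibitor of Nodal, Foxh1 (5.21 ± 0.21), the DNA-binding partner of its SMADs, and its coligand Gdf3 (4.96 ± 0.30) and coreceptor Tdgf1 (4.34 ± 0.19), the last 2 also genes of stem cells.

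Wnt3, the ligand that induces the streak and T, was highest at day 6 in both lines. It gave 5.24 ± 0.23 CPM in FLAG-WT and 11.6 ± 0.3 CPM in K19R, and at day 10 it was 0.556 ± 0.122 in FLAG-WT and 6.18 ± 1.34 in K19R. It was higher in K19R by 0.84 ± 0.28 at day 2 (adjusted p = 0.018), 1.14 ± 0.18 at day 6 (adjusted p = 6.2e-06) and 3.46 ± 0.29 at day 10 (adjusted p = 1.1e-10). Wnt3a, which acts later on T, had 61 and 81 counts at day 0 in FLAG-WT and K19R and 1 to 17 per group afterwards, and did not differ in a way that passed at any day (adjusted p = 0.078 to 0.61). All 20 WNT genes were tested, and 9 were higher and 7 lower at day 10 with a median of 0.26. Among them Rspo3 (4.21 ± 0.44), which amplifies WNT signals, and the feedback gene Axin2 (2.24 ± 0.18) were raised. Wnt8a, a posterior streak ligand, had 48 counts against 1, a ratio of 37.3 with a counting interval of 6.39 to 1505. At day 2, 8 of the 20 were higher and 7 lower in K19R, with a median of -0.11 and 75% called, beside 41.8% of all genes tested. The WNT inhibitor Dkk1 was lower there by a log2 value of -3.13 ± 0.11 (adjusted p = 9.6e-18). The ligand gene Wnt11 was also lower (-2.77 ± 0.25), and Wnt8a was higher (3.12 ± 0.28).

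Bmp4, the extraembryonic signal that maintains the streak, was lower in K19R at day 2 (9.40 ± 0.10 against 14.8 ± 0.8 CPM, adjusted p = 0.00054). It was higher at day 6 (7.96 ± 0.14 against 4.45 ± 1.42 CPM, adjusted p = 0.00027) and at day 10 (13.7 ± 1.8 against 5.87 ± 0.27 CPM, adjusted p = 4.3e-07). Fgf8, expressed in the streak and needed for cells to leave it, was higher in K19R at day 2 (5.00 ± 0.66 against 2.61 ± 0.03 CPM, adjusted p = 0.0017). It was also higher at day 6, with 35 counts against 9 (1.53 ± 0.52, adjusted p = 0.014). At day 10 it had 267 counts in K19R against 1 in FLAG-WT, a ratio of 208 with a counting interval of 37.0 to 8232. All 18 BMP and FGF genes were tested, and 7 were higher and 7 lower at day 10, with a median of 0.07. The shares called at day 10 were 80% of the WNT genes and 77.8% of the BMP and FGF genes, beside 58.4% of all genes tested, and the difference from all genes was not tested.

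**Figure D4:**
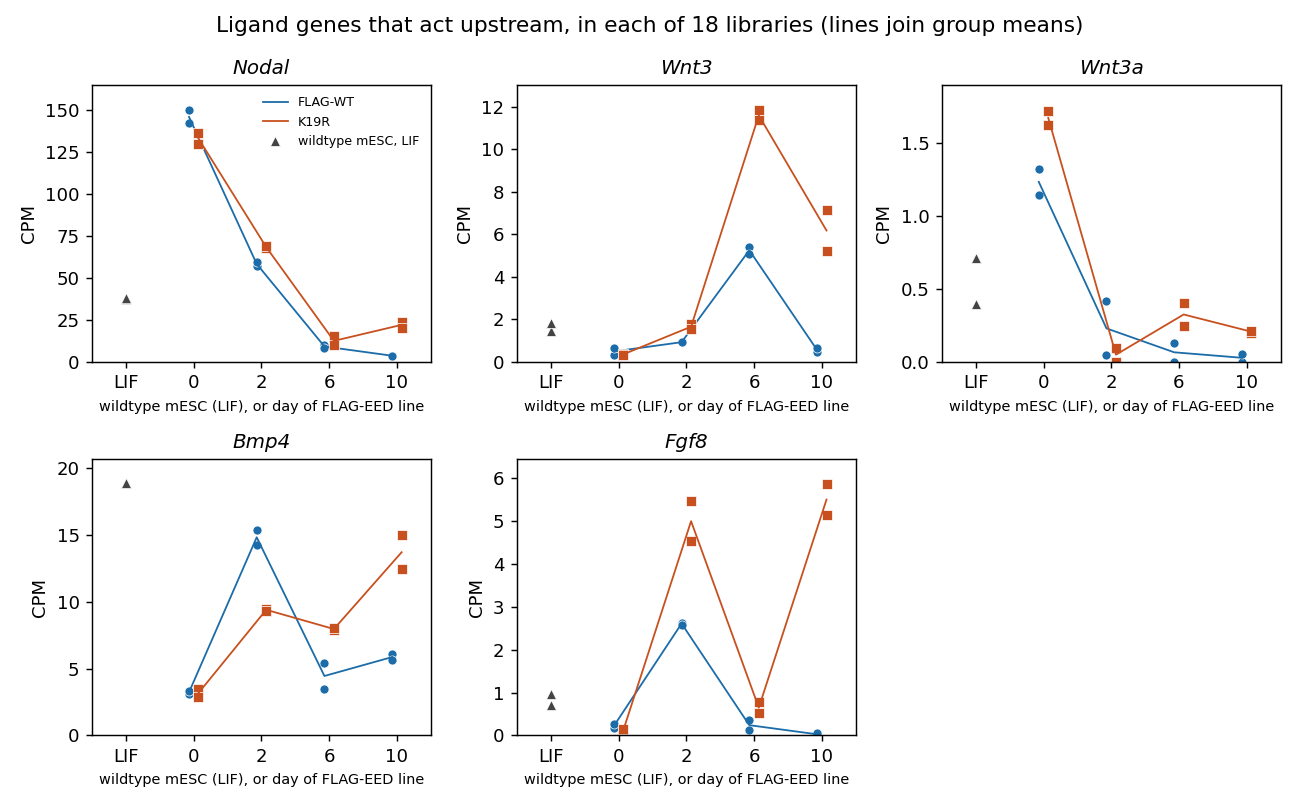
CPM of the ligand genes Nodal, Wnt3, Wnt3a, Bmp4 and Fgf8 (1 panel each, linear axes) in all 18 libraries, with symbols and lines as in the plot of the members. At day 10 both K19R libraries are above both FLAG-WT libraries for each of the 5, and Wnt3 is highest at day 6 in both lines.

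Genes that follow the streak did not move as 1 block. Of 22 genes of nascent and presomitic mesoderm, 20 were tested, and 11 were higher and 5 lower in K19R at day 10. The share called was 80% of the 20, beside 58.4% of all genes tested. Their median was 1.38, or 0.69 with genes at 0 counts in a group set at their bound. Such genes were left out where both groups were at or under the limit. Hand1 (4.24 ± 0.20), Tcf15 (2.73 ± 0.25) and Dll3 (2.08 ± 0.61) were higher and Foxf1 (-2.16 ± 0.25) lower. Tbx6, a T-box gene of presomitic mesoderm, had 80 counts in FLAG-WT and 62 in K19R at day 10 and was lower in K19R (-0.73 ± 0.32, adjusted p = 0.049). Msgn1, another presomitic gene, had 10 counts in K19R against 0 in FLAG-WT, at least 1.30-fold higher. Of 13 definitive endoderm and node genes, 11 were tested, and 4 were higher and 4 lower at day 10, with a median of 0.18. The share called was 72.7% of the 11, beside 58.4% of all genes tested. The 13 summed to 818 to 914 CPM in FLAG-WT and 877 to 887 CPM in K19R at day 10, so the sums overlapped. At day 2 they did not, at 702 to 709 CPM in FLAG-WT and 400 to 428 CPM in K19R. Of the 11, 2 were higher and 7 lower there, 81.8% called beside 41.8% of all genes tested. At day 6 the sums were 647 to 717 and 415 to 429 CPM, with 2 higher and 5 lower, 63.6% called beside 58.5%. At day 10 Otx2 (4.91 ± 0.19), also a gene of early epiblast, and Cxcr4 (3.41 ± 0.42) were among the higher. The defining node gene Noto had 0 counts in FLAG-WT day 10 and 4 in K19R day 10, all in a single library, and the notochord gene Shh 0 and 28. By group mean, Foxj1, of the same list and far better counted, went the other way. It gave 43.6 ± 5.3 CPM in FLAG-WT day 10 and 32.8 ± 6.0 CPM in K19R day 10 (SD, n = 2). Tbx6 and Msgn1 were chosen for mention after their values were seen, as were Noto, Shh and Foxj1.

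Markers of other cells in which members are also known were set beside these values. The 11 cardiac genes summed to 17.1 to 17.3 CPM in FLAG-WT day 10 and 21.7 to 24.8 CPM in K19R day 10, with 5 higher and 2 lower in K19R among the 11 tested and a median of 0.86. The 12 neural genes summed to 160 to 182 CPM and 61.5 to 68.1 CPM, a sum led in FLAG-WT by Nes (-1.80 ± 0.08), while of the 9 tested 4 were higher and 2 lower in K19R with a median of 0.59, so the sum and the list ran in opposite directions. The shares called at day 10 were 63.6% of the tested cardiac genes and 66.7% of the tested neural genes, beside 58.4% of all genes tested. Neurod1 (2.16 ± 0.42), Sox1 (1.89 ± 0.56) and Tubb3 (1.86 ± 0.18) were among the higher neural genes. Tbr1, which follows Eomes in cortical neurons, had 7 and 4 counts in these groups, and Evx2, the relative of Evx1, 1 and 0 counts. The 4 stem cell genes were higher in K19R at day 10, Sox2 by 5.47 ± 0.14, Nanog by 4.22 ± 0.14, Pou5f1 by 3.62 ± 0.13 and Zfp42 by 2.18 ± 0.12 (adjusted p = 3.9e-20 to 2.8e-14), and at day 6 by 0.84 to 2.99. Their part in the members' levels was not tested. Eed itself gave 178 ± 5, 110 ± 2, 42.7 ± 5.1 and 44.8 ± 2.9 CPM in FLAG-WT at days 0, 2, 6 and 10, and 189 ± 14, 79.9 ± 3.1, 44.5 ± 0.2 and 48.5 ± 2.1 CPM in K19R. It was lower in K19R at day 2 (-0.46 ± 0.08, adjusted p = 2.2e-05) and did not pass at day 0, 6 or 10 (adjusted p = 0.24 to 0.61). Its step differed between lines from day 0 to day 2 (-0.54 ± 0.11, adjusted p = 0.0003) and from day 2 to day 6 (0.51 ± 0.11, adjusted p = 0.00057). The gene's count does not show the codon at position 19, so it does not check the genotype. The PRC2 core genes Ezh2 (-0.57 ± 0.07, adjusted p = 6.3e-08) and Suz12 (-0.25 ± 0.08, adjusted p = 0.0079) were lower in K19R at day 6 and did not pass at the other days. Of 6 PRC2 genes tested, those higher and lower in K19R numbered 2 and 0 at day 0 and 0 and 2 at day 2. At day 6 they numbered 2 and 3, and at day 10, 2 and 1. The shares called were 33.3, 33.3, 83.3 and 50%, beside 10.5, 41.8, 58.5 and 58.4% of all genes tested. The higher at day 0 were Jarid2 (0.31 ± 0.07) and Ezh1 (0.26 ± 0.07), and Ezh1 was lower at each later day (-0.46, -0.73 and -0.31).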

How the data were processed

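Total RNA was sequenced from 18 libraries in 9 groups of 2, with groups taken from the sample titles. The deposited values are raw counts per gene, assigned by the authors with featureCounts (1.6.3 and 1.6.4 per the file headers). Reads had been trimmed with Trim Galore 0.6.0 and aligned with STAR 2.7.0c to GRCm38, per the submitters' processing notes. No strand option or multiple-overlap option appears in the recorded commands, so reads over 2 genes went to neither.

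The counts were analysed with edgeR 4.0.16 in R 4.3.3: filterByExpr (count minimum 10, total 15), TMM scaling, 1 coefficient per group and the quasi-likelihood test, two-sided, with Benjamini-Hochberg adjustment over all genes tested. The 16 FLAG-EED libraries were fitted together (19092 genes, 8 residual degrees of freedom) for 13 comparisons, and all 18 (19296 genes) for wildtype mESC. CPM of wildtype mESC come from the second scaling. Replicates of a group differed beyond sampling noise (chi-square per degree of freedom 2.36 to 12.3), so none was a duplicate. Counting intervals are exact 95% binomial intervals, and these intervals and limits of 3 counts per library cover counting error only. The test was checked on simulated data, with changes placed only in genes above a minimum mean level. That check does not bear on members of few counts.

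The members and lists were chosen with earlier results of these data known. All members are named; of each list, up to 4 genes that passed with the largest change and a mean of at least 1 CPM, and the 5 ligand genes, Eed, Ezh2 and Suz12 whatever they did. Other scalings, no filter, DESeq2 1.42.0, a replicate block, the 4 compared libraries alone and each library left out were tried.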

Additional observations from a re-analysis of the deposited data

Results flagged for a closer look

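The step between days differed between the lines, by the test of that difference in edgeR's model, for 8 combinations of member and step among the 15 tested (5 members in 3 steps). From day 0 to day 2 it was Eomes (-1.63, K19R step minus FLAG-WT step on the log2 scale). From day 2 to day 6 it was T (3.76), Eomes (1.25), Mixl1 (2.24) and Evx1 (2.26). From day 6 to day 10 it was Eomes (1.99), Mixl1 (3.10) and Evx1 (2.75). Of these, T from day 2 to day 6 and Mixl1 and Evx1 from day 6 to day 10 lost their call when a single FLAG-WT library of few counts was left out, and the other 5, the 3 Eomes values and those of Mixl1 and Evx1 from day 2 to day 6, kept theirs in the 13 alternatives tried for each. The cause of these differences was not tested.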

How the results depend on the processing

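The 70 member results (5 tested members in 14 comparisons) were recomputed under 734 alternatives. Of these, 706 kept the call or its absence, 24 lost the call, 4 gained it and 0 reversed a call. Among the 706, the sign turned in 10, where neither value was called. With the 4 libraries alone, genes called at day 0 went from 2003 to 4014, members called at day 2 from 3 to 1, and members called in K19R from day 2 to day 6 from 1 to 0. In both fits behind these member counts, Gsc did not pass the filter on low counts and was not tested. With 1 library left out, the day 0 count of genes was 845 to 955, members called at day 2 were 1 to 2, in the K19R step from day 2 to day 6 they were 0 to 1, for the difference of steps from day 0 to day 2 they were 1 to 2 and from day 6 to day 10 they were 1 to 3; such fits have fewer samples. With library totals only, higher genes made up 72.9% of those called at day 6 (48.6% with TMM) and 77.0% at day 10 (56.9%), and moved from 49.1% to 34.6% in FLAG-WT from day 2 to day 6 and from 52.1% to 80.8% in the difference of steps from day 2 to day 6; the lone member call it changed was Gsc at day 10. Of 54 mean levels, 8 moved by more than their spread.

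Replicate numbers did not pair libraries: over 28 pairs of groups the correlation of deviations was -0.03 to 0.05, with 0 above 0.1. With a replicate block 1921 genes were called at day 0, and the Mixl1 call at day 2 was lost, which left 2 members called. Depth limits T, Mesp1, Mixl1 and Evx1 in FLAG-WT at days 6 and 10, where 0 to 9 counts per library were seen.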
